A study of Mus musculus with 13 samples.

Results

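Sodium, calcium and HCN channel genes encode the pore-forming and auxiliary subunits that set how neurons fire and how calcium enters them. Every gene of the deposited table with a symbol starting Scn and a digit, Cacna, Cacnb or Cacng, or of the HCN channel genes, was taken when at least 2 of the 13 libraries held 10 or more normalized counts. This gave 42 of the 44 genes with such names, out of 26264 genes in the table. They comprised 10 sodium channel α subunits, 4 sodium channel β subunits, 10 calcium channel α1 subunits, 4 α2δ subunits, 4 calcium channel β subunits, 6 γ subunits and 4 HCN subunits. The 2 genes left out were Cacng1, with at most 9.397 normalized counts in any library, and Cacng6, with at most 4.997. Just inside the limit lay Scn10a, with 10 or more in 2 libraries and at most 13.4, and Scn4a, with 10 or more in 3 libraries and at most 17.5.

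The libraries were bulk RNA-seq of tissue punched from the ventral tegmental area (VTA) of adult C57BlJ/6 mice, after a virus was put into that region on postnatal day 14. Setd7 is a lysine methyltransferase able to methylate histone H3, and the other virus carried green fluorescent protein (GFP). The groups were Setd7 virus with adult social defeat (Setd7 defeat, n = 2), Setd7 virus without defeat (Setd7 control, n = 4), GFP virus with adult social defeat (GFP defeat, n = 4) and GFP virus without defeat (GFP control, n = 3). Both sexes were in each group, with 6 female and 7 male libraries in all, and each library, GFP control included, came from virus-treated tissue. The promoter of the virus, the cells it entered and the number of animals behind a library are not given in the sources used here. No label says that the libraries of a group came from separate animals, so the tests measure the spread between libraries. The table heads Setd7 defeat replicate 1 with a longer number than its label has, and whether it holds more than 1 animal was not settled.

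Voltage-gated sodium channels carry the upstroke of the action potential, with an α subunit forming the pore and β subunits shaping its gating and placement. Calcium channels are built around an α1 subunit that defines the current type (L, P/Q, N, R or T), with α2δ and β subunits that bring it to the membrane, while most γ subunits in brain act as auxiliary subunits of AMPA-type glutamate receptors. HCN channels open on hyperpolarization and, with L-type calcium channels, are known for their part in the regular pacemaking of midbrain dopamine neurons.

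The libraries held 26.5 to 50.8 megareads each, and the 42 genes held 0.507 to 0.614% of the normalized counts. Setd7 had 28587 to 158681 normalized counts in the 6 Setd7 libraries and 10888 to 14538 in the 7 GFP libraries. The lowest Setd7 library was Setd7 control replicate 4 at 28587, with the others at 81302 to 158681. Dopamine neuron markers were present in each library, with Th (tyrosine hydroxylase) at 2508 to 19111 and Slc6a3 (the dopamine transporter) at 4914 to 45560 normalized counts. Their level differed between libraries of a group: the sum over 18 dopamine neuron genes was 103557 to 123521 in Setd7 defeat, 92544 to 173632 in Setd7 control, 40976 to 164267 in GFP defeat and 37191 to 102452 in GFP control. GFP defeat replicate 1 and GFP control replicates 2 and 3 had the 3 lowest of these sums. The sum over 11 thalamus genes was 17811 to 20711 in Setd7 defeat, 18310 to 19430 in Setd7 control, 18342 to 36851 in GFP defeat and 20895 to 61279 in GFP control. GFP defeat replicate 4 and GFP control replicates 2 and 3 had the 3 highest. Tcf7l2, a gene of thalamic neurons, was at 6575 to 9559 normalized counts in these, against 949 to 1869 in the other 10. GFP control replicate 3 was also high in Slc17a7 (5064) and Rora (9087). Its Prkcd (394), Gbx2 (34.5), Plekhg1 (2106) and Ntng1 (2316) were far below GFP control replicate 2 (4956, 656, 7971 and 8198). Its Calb2 (4733) was the lowest of the 13 libraries, so its sum rested on part of the list. In bulk tissue, fewer cells of a type and less RNA per cell cannot be told apart.

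The starts of 4 of these genes are shown because the results turn on them: Cacng5 had the smallest p of the 42 genes in the comparisons of Setd7 without defeat and of defeat with GFP, and Scn1a, Scn8a and Scn4b were all highest in the same library. The windows are 300 bases around a RefSeq start in GRCm38.p6, written 5′ to 3′ on the strand of the gene, while the submitters' processing notes name GRCm39. They are Cacng5 at chr11:107915006-107915305 on the minus strand, Scn4b at chr9:45138374-45138673 on the plus strand, Scn1a at chr2:66440788-66441087 on the minus strand and Scn8a at chr15:100870395-100870694 on the plus strand. RefSeq lists 2 starts for Cacng5 and for Scn8a, of which the first is shown. Capitals mark matches on either strand to a GC box (GGGCGG, or CCGCCC read from the other strand) and to a CCAAT box (CCAAT, or ATTGG).
Cacng5: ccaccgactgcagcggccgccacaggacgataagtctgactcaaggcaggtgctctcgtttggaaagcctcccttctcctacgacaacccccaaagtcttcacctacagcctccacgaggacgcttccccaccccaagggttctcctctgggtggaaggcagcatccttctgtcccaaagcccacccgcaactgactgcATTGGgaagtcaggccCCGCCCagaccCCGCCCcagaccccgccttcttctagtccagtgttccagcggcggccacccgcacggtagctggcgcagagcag
Scn4b: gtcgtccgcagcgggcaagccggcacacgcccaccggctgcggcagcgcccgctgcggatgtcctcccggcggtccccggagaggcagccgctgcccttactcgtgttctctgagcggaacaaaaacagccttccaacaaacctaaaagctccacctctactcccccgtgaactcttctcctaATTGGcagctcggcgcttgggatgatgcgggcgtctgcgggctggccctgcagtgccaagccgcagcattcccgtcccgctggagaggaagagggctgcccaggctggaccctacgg
Scn1a: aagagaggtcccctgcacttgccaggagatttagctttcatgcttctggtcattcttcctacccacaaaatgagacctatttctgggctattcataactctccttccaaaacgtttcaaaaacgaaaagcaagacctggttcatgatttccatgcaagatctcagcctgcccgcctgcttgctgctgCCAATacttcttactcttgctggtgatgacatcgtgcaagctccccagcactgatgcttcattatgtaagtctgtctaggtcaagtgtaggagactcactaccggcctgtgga
Scn8a: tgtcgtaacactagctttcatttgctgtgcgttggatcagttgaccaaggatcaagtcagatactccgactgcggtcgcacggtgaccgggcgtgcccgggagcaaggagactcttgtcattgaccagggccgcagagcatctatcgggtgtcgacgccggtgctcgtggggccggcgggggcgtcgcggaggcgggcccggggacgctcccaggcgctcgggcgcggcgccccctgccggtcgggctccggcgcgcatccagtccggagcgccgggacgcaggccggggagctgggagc
The Cacng5 window held 2 GC boxes and 1 CCAAT box, the Scn4b and Scn1a windows held 1 CCAAT box each, and none of the searched letters was in the Scn8a window. GC content was 63.3% in the Cacng5 window, 66.3% in that of Scn4b, 47.3% in that of Scn1a and 70.0% in that of Scn8a. RefSeq gave 42 windows for 31 of the 42 genes. The 11 genes with none included Cacna1a, Cacna1g, Cacna1h, Cacna2d4, Cacng4, Hcn3, Scn3a and Scn3b. A GC box was in 42.9% of the channel gene windows and in 35.7% of all 32851 windows, and a CCAAT box in 23.8% and 37.4%. A TATA box (TATAAA) was in 4.76% of the channel gene windows and 13.6% of all windows. The cAMP response element (TGACGTCA) and the left part of the RE1 element (TTCAGCACC) were in 0 of the 42 windows, and in 1.79% and 0.371% of all windows. Median GC content was 60.3% in the channel gene windows and 52.7% in all windows. These matches are descriptions of letters and name no binding site.

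Levels were compared between genes as normalized counts per kb of annotated exon, averaged over the 13 libraries. The length joined all annotated exons of a gene, used in this tissue or not, so the order depends on it. In mean normalized counts, without this division, Scn8a (17480) was above Scn2a (15226). Among sodium channel α subunits, Scn1a was highest at 1621 ± 292 (SD), followed by Scn2a at 1196 ± 187 and Scn8a at 1109 ± 217. These 3 encode the main sodium pores of adult central neurons, and their ranges overlapped: Scn1a was above Scn2a in 12 of 13 libraries, and Scn2a above Scn8a in 9. Scn3a, a sodium pore best known from the developing brain, was lower at 389 ± 59.0, and its range overlapped neither that of Scn8a nor that of Scn9a. Scn9a, known from sensory and sympathetic neurons, averaged 118 ± 25.3 and Scn7a, a sodium sensor of glia and neurons, 71.3 ± 14.9. Scn9a was above Scn7a in 13 of 13 libraries, though their ranges overlapped. Another 3 were detected at low levels, namely Scn11a (2.29 ± 1.17) and Scn10a (0.653 ± 0.449), known from pain-sensing neurons, and Scn4a (0.797 ± 0.842), the pore of skeletal muscle. Scn10a had 1 to 18 reads in a library. Scn4a had 0 reads in GFP control replicate 2, GFP defeat replicate 3, Setd7 control replicate 3 and Setd7 defeat replicate 2. All 3 genes count in the sodium α numbers below.

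Of the sodium β subunits, Scn2b averaged 3787 ± 269.9 per kb, Scn4b, which takes part in the resurgent sodium current of fast-firing neurons, 1697 ± 784, and Scn3b 1035 ± 238. These were detected in all 13 libraries. Scn2b and Scn4b lie next to each other on chromosome 9. They differed in spread: the highest library was 1.35 times the lowest for Scn2b, and 4.73 times for Scn4b.

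Among calcium channel α1 subunits, Cacna1b, the N-type pore of nerve terminals, averaged 615 ± 50.0 per kb and Cacna1a, the P/Q-type pore, 578 ± 57.9, with Cacna1b above in 11 of 13 libraries. The T-type pores followed with Cacna1i at 504 ± 85.2 and Cacna1g at 434 ± 102, and the R-type pore Cacna1e at 371 ± 36.9. Cacna1e did not overlap the next gene, the T-type pore Cacna1h (215 ± 28.1). The L-type pores of brain were lower per kb, with Cacna1c at 199 ± 32.3 and Cacna1d, the L-type pore linked to dopamine neuron pacemaking, at 121 ± 7.75. This order also depends on the exon lengths. In mean normalized counts Cacna1e was the highest α1 gene (9364), and Cacna1c (4210) was near Cacna1g (4398). Cacna1d had the smallest spread of the 42 genes, with a coefficient of variation of 6.39% over the 13 libraries. Cacna1s of skeletal muscle (3.01 ± 1.95) and Cacna1f of retina (2.02 ± 1.05) were detected at low levels. In the annotation, 19.98% of the Cacna1s exon length lies opposite another gene on the other strand, and the strand setting of the counting is not given in the sources used here. The same holds for 17.1% of Hcn3 and 15.99% of Cacnb4.

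Of the α2δ subunits, Cacna2d2 (805 ± 90.2 per kb) and Cacna2d1 (531 ± 108), which bind gabapentin, were above Cacna2d3 (178 ± 19.6) and Cacna2d4 (11.8 ± 4.16), a subunit known from retina. Cacna2d2 was above Cacna2d1 in 12 of 13 libraries. Of the calcium channel β subunits, Cacnb3 (612 ± 83.6) and Cacnb1 (605 ± 50.0) were not separated, with Cacnb3 higher in 6 of 13 libraries. Cacnb4 averaged 448 ± 73.2 and Cacnb2 169 ± 18.7.

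Of the γ subunits, Cacng7 was highest at 2335 ± 235 per kb and its range did not overlap that of Cacng4 (829 ± 115). Cacng8 (672 ± 67.9), Cacng2 (487 ± 45.8), Cacng5 (290.4 ± 117) and Cacng3 (290 ± 49.2) followed. Cacng2, Cacng3, Cacng4 and Cacng8 encode the classical AMPA receptor auxiliary subunits, and Cacng5 and Cacng7 another class of them. Cacng5 exceeded Cacng3 in 4 of 13 libraries. Hcn2 averaged 4317 ± 623 per kb and made up 81.9 ± 2.06% of the summed HCN level, with no overlap with Hcn3 (386 ± 58.8) or Hcn4 (322 ± 43.2). Hcn3 was above Hcn4 in 11 of 13 libraries.

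**Figure D1:**
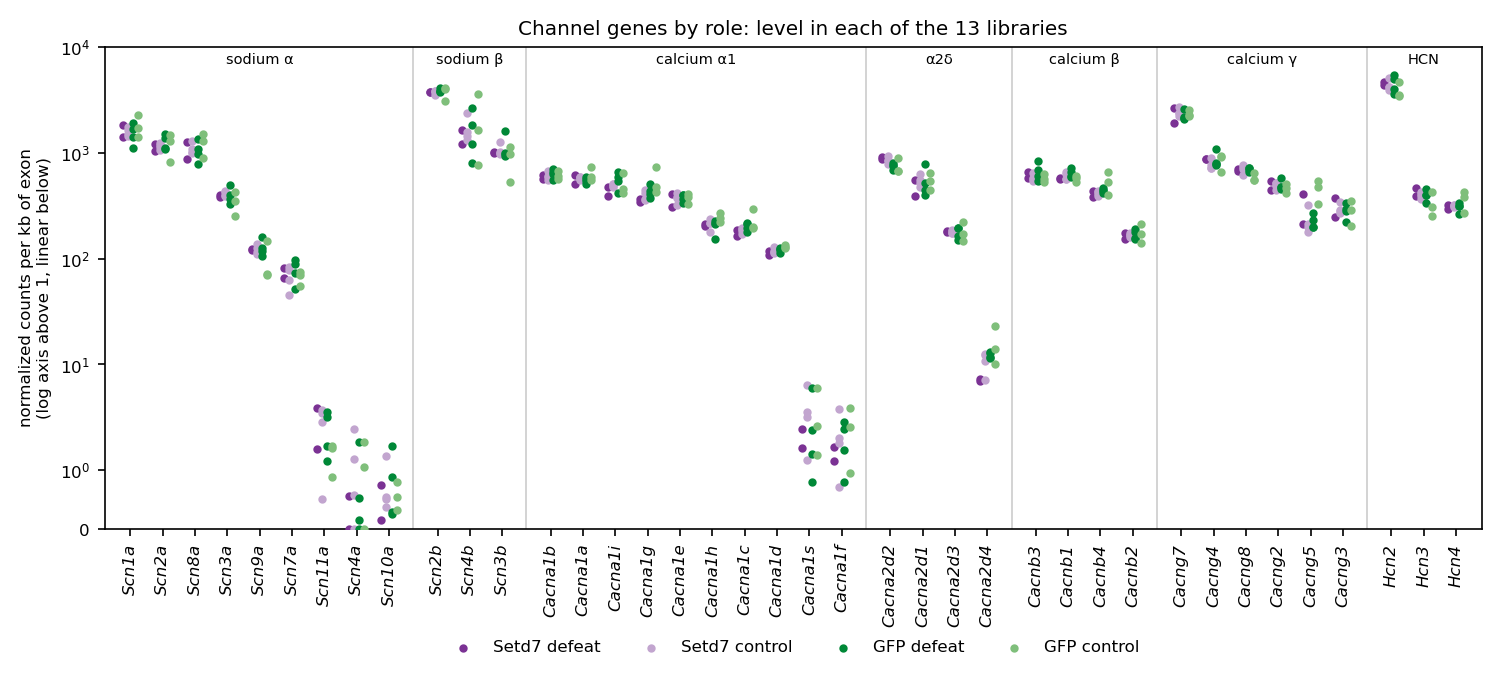
Level of 39 channel genes in the 13 libraries, as normalized counts per kb of exon on an axis that is logarithmic above 1 and linear below, coloured by group and ordered by role. Hcn2 stands apart from the other HCN genes, while Scn1a, Scn2a and Scn8a overlap.

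A few libraries held the highest or the lowest value of many channel genes. Over the 37 genes with a mean of 30 or more normalized counts, GFP control replicate 3 was the highest library for 7 and the lowest for 14, against 11.5% and 13.8% of the 14997 genes at that level in the whole table. Those it was highest for included Scn1a, Scn8a, Scn4b, Cacna1a and Cacnb4. Those it was lowest for included Scn2a, Scn3a, Scn9a, Scn2b, Scn3b, Cacna2d2, Cacna2d3, Cacnb1, Cacnb2, Cacnb3, Cacng3, Cacng4 and Hcn3. GFP defeat replicate 4 was at the opposite end for many of these genes, being highest for Scn2a, Scn3a, Scn9a, Scn2b, Scn3b, Cacnb1, Cacnb3 and Cacng4, and lowest for Scn1a and Scn8a. It was also highest for Cacna1b.

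Scn4b had 6047 and 8114 normalized counts in Setd7 defeat, 11884, 6522, 7208 and 7919 in Setd7 control, 6088, 13179.5, 9063 and 4019 in GFP defeat and 3792, 8139 and 17943 in GFP control. The lowest and the highest of the 13 libraries were both GFP controls, replicates 1 and 3, and the groups overlapped. Scn1a had 15572 and 20516 in Setd7 defeat, 19381, 18469.9, 16075 and 16683 in Setd7 control, 15676, 21507, 18719 and 12426 in GFP defeat and 15716, 18952 and 25215 in GFP control. Its lowest library was GFP defeat replicate 4 and its highest GFP control replicate 3. Scn2a had 13184 and 15565 in Setd7 defeat, 13536, 15132, 15732 and 14317 in Setd7 control, 17484, 14267, 13915 and 19168 in GFP defeat and 16455, 18744 and 10436 in GFP control. Here the same 2 libraries were at the other ends, with GFP control replicate 3 lowest and GFP defeat replicate 4 highest.

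As a share of the summed sodium α level per kb, Scn1a therefore ranged from 26.4% in GFP defeat replicate 4 to 45.1% in GFP control replicate 3, and Scn2a from 16.3% in GFP control replicate 3 to 35.6% in GFP defeat replicate 4. Scn8a went with Scn1a, at 18.5% in GFP defeat replicate 4 and 30.3% in GFP control replicate 3. Scn4b made up 8.69% of the summed β level in GFP defeat replicate 4 and 26.5% in GFP control replicate 3.

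A list of 6 genes of fast-firing neurons (Vamp1, Kcna1, Kcnc1, Kcng4, Nefh and Pvalb) was written after these values were seen. All 6 genes were detected, and their sum was 57705 to 73278 in Setd7 defeat, 62576 to 86835 in Setd7 control, 45292 to 88639 in GFP defeat and 49898 to 108822 in GFP control. The lowest sum was in GFP defeat replicate 4 and the highest in GFP control replicate 3, the lowest and highest libraries of Scn1a and Scn8a. Vamp1, Kcna1, Kcnc1 and Pvalb had the same lowest and highest libraries, while Kcng4 and Nefh did not. Both were highest in Setd7 control replicate 1, at 4344 and 11085. Kcng4 was lowest in GFP defeat replicate 1 (1644) and Nefh in GFP control replicate 1 (4423). Pvalb is also in the list of GABA neuron genes, whose sum was 73318 to 77780 in Setd7 defeat, 61854 to 76550 in Setd7 control, 61689 to 79732 in GFP defeat and 56889 to 73353 in GFP control. A list of 7 hindbrain genes, written at the same time, summed to 365 to 431 in Setd7 defeat, 213 to 1283 in Setd7 control, 172 to 3441 in GFP defeat and 73.0 to 2157 in GFP control. Slc6a5 made up most of this sum in each library. It was highest in GFP defeat replicate 2, at 3387 of 3441, against 1511 in GFP control replicate 3. The Hox genes of the list were highest in GFP control replicate 3, with Hoxb5 at 179 normalized counts there and at most 4.31 elsewhere. The part of tissue content in these channel patterns was not tested.

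**Figure D2:**
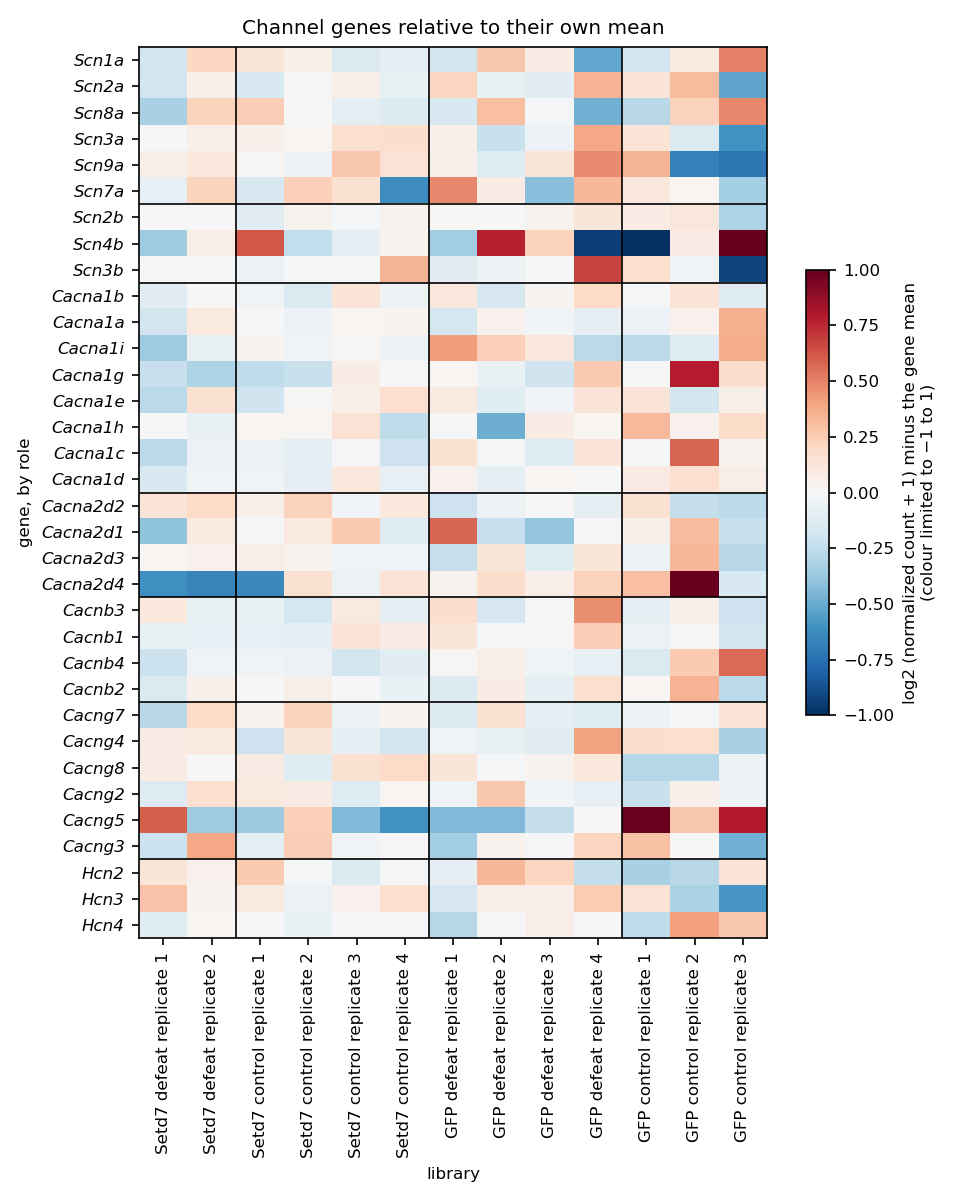
Each of 34 channel genes with a mean of 30 or more normalized counts in each library, as log2(normalized count + 1) minus the mean of the gene over 13 libraries, with colour limited to -1 to 1. GFP control replicate 3 and GFP defeat replicate 4 show opposite colours for Scn1a, Scn8a, Scn4b, Scn2a, Scn3a, Scn9a and Scn3b.

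**Figure D3:**
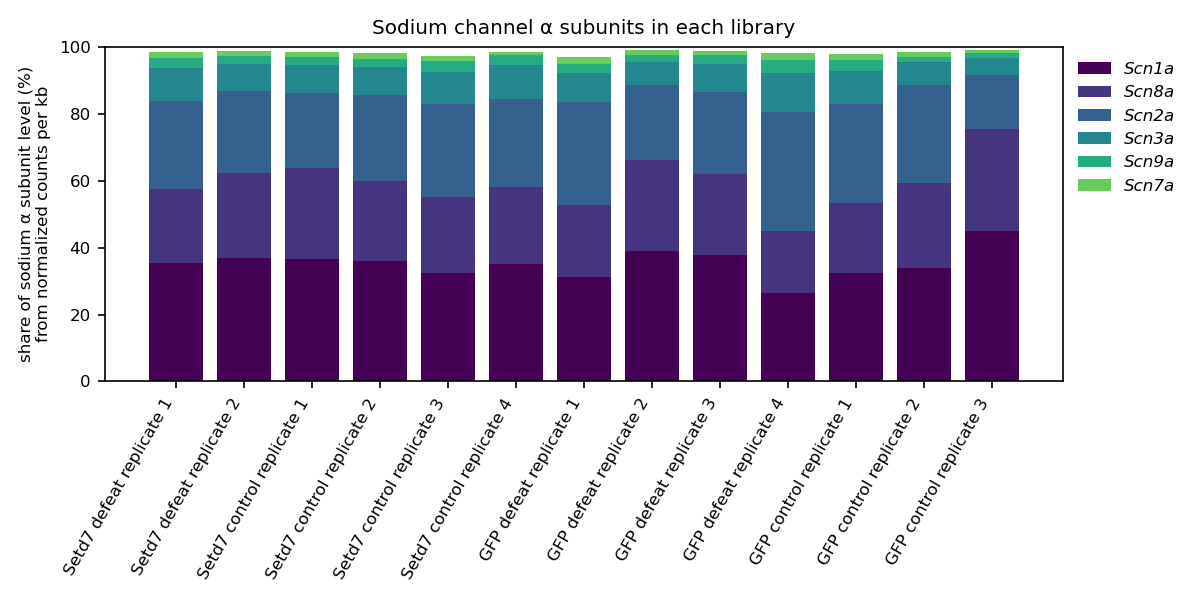
Share of each sodium channel α subunit in the summed α level, from normalized counts per kb, in the 13 libraries, with genes of small share not drawn. Scn1a is 45.1% in GFP control replicate 3 and 26.4% in GFP defeat replicate 4.

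The first comparison asked whether Setd7 put in at postnatal day 14 changed these channel genes in unstressed adults, as Setd7 control against GFP control. By limma with Benjamini-Hochberg adjustment over 17755 genes and a threshold of 0.05, 0 of the 42 genes passed, as did 0.0% of all genes. At unadjusted p under 0.05 there were 1 gene with a higher and 4 genes with a lower level, against 8.01% of all genes (4.31% higher and 3.7% lower), and the median log2 difference of the 42 was -0.00, against 0.01 over all genes. DESeq2 on the recovered reads called 1 of the 42, Cacng5, and 0.152% of all genes, and edgeR called 0. Without GFP control replicate 1, limma called 1, Scn9a, and 4 of all 17755 genes (0.0225%). Scn9a then had a log2 difference of 0.91 (adjusted p = 0.0373), against 0.44 ± 0.22 (adjusted p = 0.652) with all libraries. The library left out had 1857 normalized counts of Scn9a, above each Setd7 control library (1412 to 1764). GFP control replicates 2 and 3 had 919 and 888, so this call rested on them. They were among the 3 libraries low in Th and the 3 high in Tcf7l2. By non-overlapping groups there were 2, Cacng5 and Cacna1c, both lower, against 8.26% of all genes (4.17% higher and 4.09% lower).

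Cacng5 had 809, 1228, 767 and 685 normalized counts in Setd7 control against 2071, 1259 and 1804 in GFP control. All 4 Setd7 control libraries lay below each GFP control library, by little for the nearest pair, replicate 2 of each group. The lowest value, 685, was in Setd7 control replicate 4, the Setd7 library with the least Setd7 (28587 normalized counts). Cacng5 had a log2 difference of -1.03 ± 0.22 (SE), with an adjusted p of 0.539 by limma, 0.568 by edgeR and 0.00613 by DESeq2. Over all alternatives the difference lay between -1.18 and -0.93 and the adjusted p between 0.00613 and 0.861, and of these only that by DESeq2 was below 0.05.

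Cacng8, another AMPA receptor auxiliary subunit, had 1658, 1444, 1738 and 1792 in Setd7 control against 1286, 1287 and 1516 in GFP control. Setd7 control replicate 2 lay below GFP control replicate 3 and the other Setd7 control libraries above each GFP control. The highest value, 1792, was in Setd7 control replicate 4, the Setd7 library with the least Setd7. On the log2 scale the difference was 0.30 ± 0.08 (adjusted p = 0.539 by limma).

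Cacna1g, a T-type pore strongly used by thalamic relay neurons, had 3608, 3689, 4527 and 4240.1 in Setd7 control against 4299, 7414 and 4859 in GFP control. The groups overlapped, and GFP control replicate 2, the library with the highest thalamus gene sum, was the highest of all 13. Cacna1g had a log2 difference of -0.39 ± 0.15 (adjusted p = 0.579 by limma), and it was -0.19 without that library.

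Cacna1c had 3997, 3885, 4106 and 3612 in Setd7 control against 4117, 6221 and 4241 in GFP control, and again GFP control replicate 2 was far above the rest. The groups did not overlap, and the log2 difference was -0.28 ± 0.13 (adjusted p = 0.612 by limma) with that library and -0.10 without it.

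Cacnb4, the β subunit mutated in the lethargic mouse, had 3882, 3826, 3506 and 3697 in Setd7 control against 3603, 4762 and 5895 in GFP control. GFP control replicate 1 lay within the Setd7 control range. The log2 difference of -0.31 ± 0.12 (adjusted p = 0.589 by limma) turned to 0.07 without the 3 libraries low in Th and to 0.06 without the 3 high in Tcf7l2, which both leave GFP control replicate 1 as the single library of its group, assumed to vary like the other groups.

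Fast-firing, thalamus and dopamine gene sums differed between these GFP control libraries as given above, and their part in the differences was not tested beyond these exclusions.

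The highest genes of each role did not pass. The log2 difference was -0.15 ± 0.19 for Scn1a, -0.01 ± 0.17 for Scn2a and 0.03 ± 0.09 for Scn2b. For calcium channels it was -0.01 ± 0.09 for Cacna1b, -0.10 ± 0.09 for Cacna1a, 0.19 ± 0.10 for Cacna2d2, 0.01 ± 0.21 for Cacna2d1, 0.03 ± 0.13 for Cacnb3, 0.10 ± 0.08 for Cacnb1, 0.04 ± 0.11 for Cacng7 and -0.10 ± 0.15 for Cacng4. Hcn2 had 0.17 ± 0.15 and Hcn3 0.30 ± 0.15. By role, 8 of 10 calcium α1 genes had a log2 difference below 0 (6 to 8 with each library left out), as did 5 of 10 sodium α genes and 48.62% of all genes, and the medians by role ran from -0.11 (calcium α1) to 0.10 (sodium α).

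Social defeat with the GFP virus was compared as GFP defeat against GFP control, so it shares the 3 GFP control libraries with the comparison just given, and the values of both stand side by side without a test of their likeness. By limma 0 of the 42 genes passed, as did 0.0% of all genes. At unadjusted p under 0.05 there were 3, 2 higher and 1 lower, against 9.25% of all genes (4.87% higher and 4.38% lower), and the median log2 difference was -0.01, against -0.00 over all genes. DESeq2 called 1, again Cacng5, and 0.467% of all genes, and edgeR called 0. Non-overlapping groups were seen for 3 genes, Cacng8 higher and Cacna1d and Cacng5 lower, against 9.0% of all genes (4.26% higher and 4.74% lower).

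Cacng5 had 768, 766, 886 and 1040.1 normalized counts in GFP defeat against 2071, 1259 and 1804 in GFP control. The highest GFP defeat library lay below the lowest GFP control library. Its log2 difference was -1.01 ± 0.22, with an adjusted p of 0.354 by limma, 0.347 by edgeR and 0.00562 by DESeq2, and over all alternatives it lay between -1.24 and -0.91 with adjusted p from 0.00562 to 0.632. Cacng8 had 1702, 1545, 1609 and 1684 in GFP defeat against 1286, 1287 and 1516 in GFP control. Each GFP defeat library was above each GFP control library, and the log2 difference was 0.28 ± 0.08 (adjusted p = 0.397 by limma).

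Cacnb1 had 2966, 2695, 2760.3 and 3237 in GFP defeat against 2625, 2751 and 2406 in GFP control. The groups overlapped, and the log2 difference was 0.18 ± 0.08 (adjusted p = 0.516 by limma). Cacna1h, a T-type pore, had 2055, 1484, 2199 and 2116 in GFP defeat against 2612, 2153 and 2362 in GFP control. GFP defeat replicate 2 was the lowest and GFP control replicate 1 the highest of the 13 libraries. On the log2 scale the difference was -0.28 ± 0.13 (adjusted p = 0.542 by limma), and it was -0.16 without that GFP defeat library.

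Scn9a had 1522, 1343, 1595 and 2031 in GFP defeat against 1857, 919 and 888 in GFP control. GFP control replicates 2 and 3 were the 2 lowest of the 13 libraries, and GFP control replicate 1 lay above all but 1, GFP defeat replicate 4. Scn9a had a log2 difference of 0.48 ± 0.22 (adjusted p = 0.539 by limma). It was 0.94 without GFP control replicate 1, and it turned to -0.35 without the 3 libraries low in Th and to -0.38 without the 3 high in Tcf7l2. Hcn3 had 1409, 1653, 1655 and 1889 in GFP defeat against 1755, 1270.0 and 1050.2 in GFP control, where replicates 2 and 3 were again the 2 lowest of the 13 libraries. Its log2 difference of 0.29 ± 0.15 (adjusted p = 0.567 by limma) turned to -0.03 and -0.17 under the same exclusions.

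Cacna1d had 1576, 1436, 1546 and 1533 in GFP defeat against 1618, 1715 and 1603 in GFP control. All 4 GFP defeat libraries lay below the 3 GFP control libraries, and the log2 difference was -0.10 ± 0.07 (adjusted p = 0.672 by limma). Of the highest genes of each role, Scn1a had a log2 difference of -0.22 ± 0.19, Scn2a 0.13 ± 0.17, Scn2b 0.08 ± 0.09, Cacna1b 0.06 ± 0.09 and Cacna1a -0.16 ± 0.09. Cacna2d2 had 0.01 ± 0.10, Cacna2d1 -0.06 ± 0.21, Cacnb3 0.21 ± 0.13, Cacng7 -0.07 ± 0.11, Cacng4 0.03 ± 0.15 and Hcn2 0.20 ± 0.15. None of these passed by limma, edgeR or DESeq2. Below 0 were 7 of the 10 calcium α1 genes (6 to 8 with each library left out), against 50.41% of all genes. Of the 10 sodium α genes, 3 were below 0 and 7 above.

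**Figure D4:**
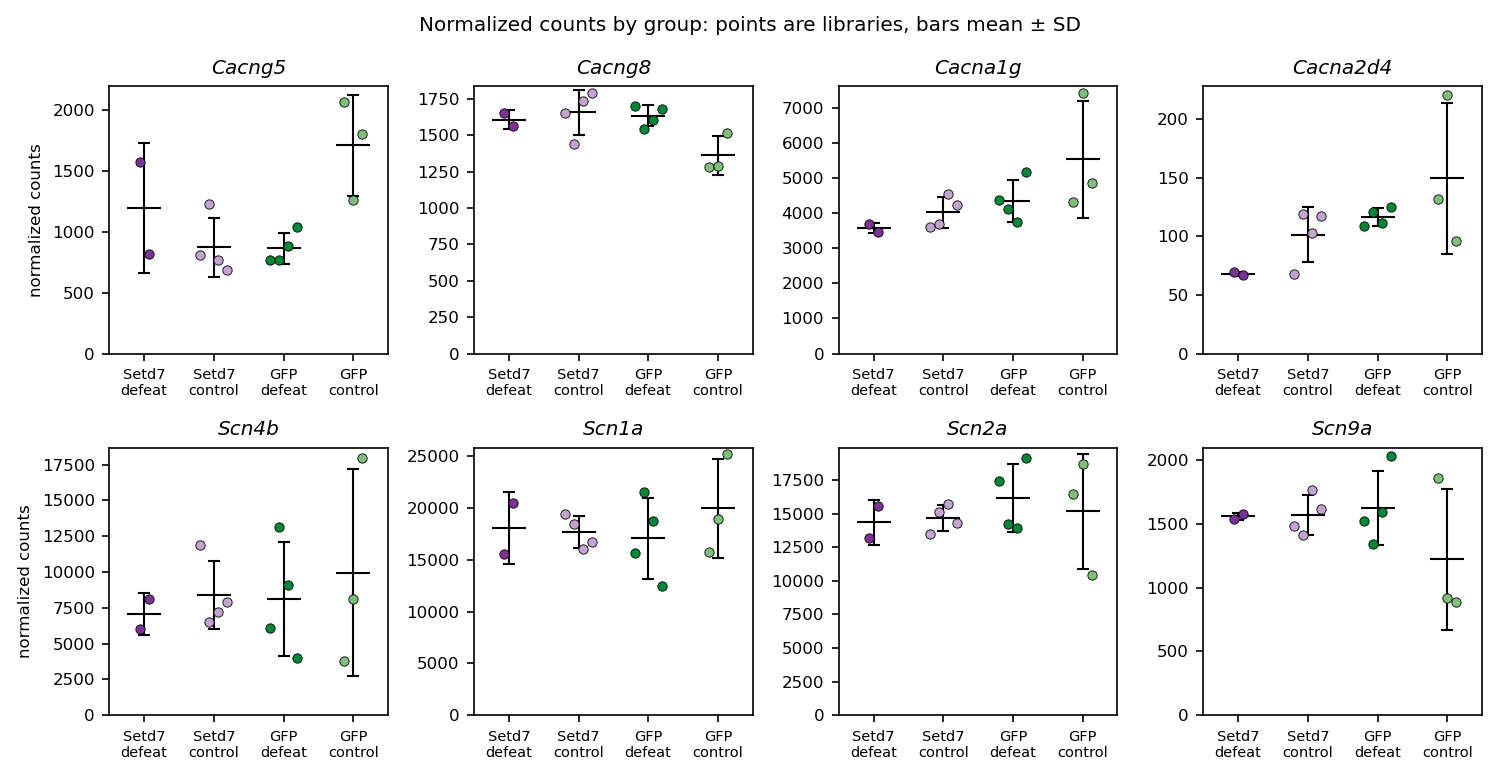
Normalized counts of 8 channel genes by group, with a point per library, a bar at the mean and whiskers of 1 SD. For Cacng5 the 3 GFP control libraries lie at 1259 to 2071, above each Setd7 control and GFP defeat library, while Setd7 defeat replicate 1 lies among them at 1575.

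Setd7 after defeat was compared as Setd7 defeat against GFP defeat, with 2 and 4 libraries. By limma 0 of the 42 genes passed, as did 0.0% of all genes, and edgeR called 0 of the 42, as did DESeq2, which called 0.0338% of all genes. At unadjusted p under 0.05 there were 2, 1 in each direction, against 4.85% of all genes (2.59% higher and 2.26% lower). The median log2 difference was -0.04, with 28 of 42 genes lower, against 0.00 over all genes. Below 0 were 8 of the 10 calcium α1 genes (6 to 9 with each library left out), against 49.22% of all genes. Of the 10 sodium α genes, 7 were below 0. Non-overlapping groups were seen for 4 genes, Cacna2d2 higher and Cacna1g, Cacna2d4 and Cacnb1 lower, against 14.1% of all genes (7.09% higher and 6.98% lower).

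Cacna2d4 had 69.2 and 66.8 normalized counts in Setd7 defeat against 109, 121, 112 and 125 in GFP defeat. Both Setd7 defeat libraries were below each GFP defeat library, and Setd7 control replicate 1 was as low at 67.7. The log2 difference was -0.77 ± 0.30 (adjusted p = 0.99 by limma). Cacna2d2 had 6963 and 7305 in Setd7 defeat against 5522, 6127, 6336 and 5975 in GFP defeat. Its groups did not overlap either, with Setd7 defeat higher, and the log2 difference was 0.25 ± 0.11 (adjusted p = 0.99 by limma). With 2 against 4 libraries, single libraries moved these values: for Cacna2d2 the difference was 0.34 without Setd7 defeat replicate 1 and 0.17 without replicate 2.

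Cacna1i had 3830.3 and 4661 in Setd7 defeat against 6552, 5793, 5323 and 4071 in GFP defeat. Setd7 defeat replicate 1 was the lowest of the 13 libraries and GFP defeat replicate 1 the highest, and the log2 difference was -0.34 ± 0.18 (adjusted p = 0.99 by limma). Cacnb1 had 2601 and 2587 in Setd7 defeat against 2966, 2695, 2760.3 and 3237 in GFP defeat. The Setd7 defeat libraries differed by little and lay below each GFP defeat library, with a log2 difference of -0.16 ± 0.09 (adjusted p = 0.99 by limma). Cacna1g had 3676 and 3471 in Setd7 defeat against 4374, 4108, 3756 and 5154 in GFP defeat, also without overlap, and a log2 difference of -0.27 ± 0.17 (adjusted p = 0.99 by limma).

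Cacng5 had 1575 and 816 in Setd7 defeat against 768, 766, 886 and 1040.1 in GFP defeat. Setd7 defeat replicate 1 lay within the GFP control range and replicate 2 within the GFP defeat range. Its log2 difference was 0.40 ± 0.25 (adjusted p = 0.99 by limma), and it was 0.01 without replicate 1 and 0.79 without replicate 2. Replicate 1 also had the highest sum of 10 meningeal fibroblast genes of the 13 libraries, 10167 normalized counts, against 1433 to 3006 in the other 12. GFP control replicates 1 and 3, with more Cacng5 (2071 and 1804), had sums of 2120 and 2758.5. The part of such tissue content in the Cacng5 values was not tested. Of the highest genes of each role, Scn1a had a log2 difference of 0.10 ± 0.21, Scn2a -0.16 ± 0.20, Scn2b -0.04 ± 0.10, Cacna1b -0.10 ± 0.10 and Cacna1a 0.02 ± 0.10. Cacna2d1 had -0.14 ± 0.24, Cacnb3 -0.10 ± 0.14, Cacng7 0.01 ± 0.13, Cacng4 0.04 ± 0.16, Hcn2 0.03 ± 0.16 and Hcn3 0.10 ± 0.17.

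Defeat with the Setd7 virus was compared as Setd7 defeat against Setd7 control. By limma 0 of the 42 genes passed, as did 0.0% of all genes, and 0 of the 42 had an unadjusted p under 0.05, against 2.59% of all genes (1.45% higher and 1.13% lower). DESeq2, with 0.0394% of all genes called, and edgeR called 0 of the 42. The median log2 difference was -0.04, against -0.01 over all genes, and each of the 10 calcium α1 genes had a difference below 0, as did 52.02% of all genes. These α1 differences ran from -0.61 (Cacna1s, a gene of low level) to -0.02 (Cacna1h). Setd7 defeat replicate 1 was the lowest of the 13 libraries for 8 of the 37 genes with a mean of 30 or more, against 9.43% of all genes at that level, among them Cacna1a, Cacna1c, Cacna1d, Cacna1e and Cacna1i. Without it 7 of the 10 calcium α1 genes were below 0, with a median of -0.04. There were 8 without Setd7 defeat replicate 2 and 7 without Setd7 control replicate 3. With all libraries, 7 of the 10 sodium α genes were below 0. Non-overlapping groups were seen for 1 gene, Cacna1i, against 9.14% of all genes (4.18% higher and 4.96% lower). Cacna1i had 3830.3 and 4661 in Setd7 defeat against 5005, 4799.8, 4950.3 and 4707 in Setd7 control, and the log2 difference was -0.20 ± 0.18 (adjusted p = 1 by limma). The difference was -0.03 without Setd7 defeat replicate 1. Cacna1i was among the 6 genes with the smallest p, and others had log2 differences of -0.54 ± 0.30 (Cacna2d4), 0.41 ± 0.25 (Cacng5), 0.18 ± 0.16 (Cacng4) and -0.16 ± 0.17 (Cacna1g). The Cacng5 difference was 0.02 without Setd7 defeat replicate 1 and 0.81 without replicate 2. Of the highest genes of each role, Scn1a had 0.02 ± 0.21, Scn2a -0.03 ± 0.20, Scn2b 0.02 ± 0.10, Cacna1b -0.03 ± 0.10, Cacna1a -0.04 ± 0.10 and Cacna2d2 0.08 ± 0.11. Cacna2d1 had -0.21 ± 0.24, Cacnb3 0.07 ± 0.14, Cacnb1 -0.08 ± 0.09, Cacng7 -0.10 ± 0.13, Hcn2 0.06 ± 0.16 and Hcn3 0.10 ± 0.17.

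**Figure D5:**
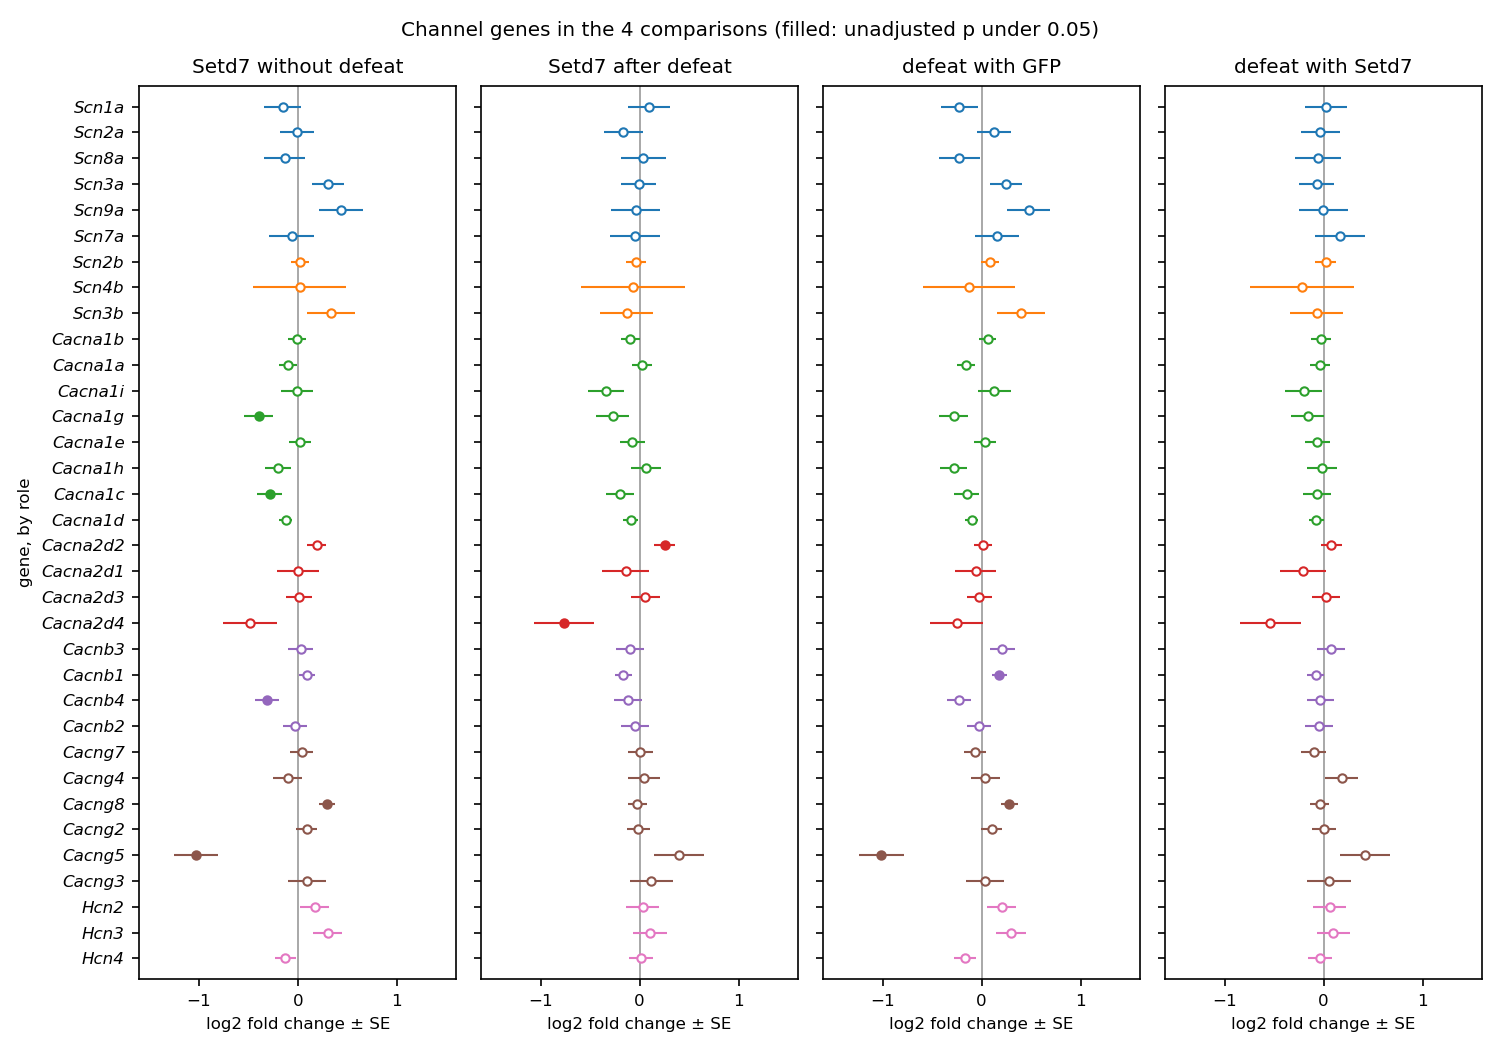
Log2 difference of 34 channel genes with its standard error in the 4 comparisons, from limma over 13 libraries, coloured by role and filled where the unadjusted p was under 0.05. There are 5, 2, 3 and 0 filled points, and Cacng5 lies near -1 in the 2 comparisons that share the GFP control libraries.

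The interaction asked whether the Setd7 difference was another one after defeat than without it. By limma 0 of the 42 genes passed, as did 0.0% of all genes, and DESeq2, with 0.00563% of all genes called, and edgeR called 0 of the 42. At unadjusted p under 0.05 there were 3, against 4.96% of all genes (2.51% higher and 2.45% lower), and the median was -0.08, against 0.00 over all genes. These 3 were Cacng5 (1.43 ± 0.34), Cacng8 (-0.32 ± 0.13) and Cacnb1 (-0.26 ± 0.12), each with an adjusted p of 0.942 by limma. The Cacng5 term was 1.02 without Setd7 defeat replicate 1 and 1.80 without replicate 2. Of the genes next in p, Scn9a had -0.48 ± 0.33 and Cacna1i -0.33 ± 0.25. The Scn9a term turned to 0.34 without the 3 libraries low in Th and to 0.37 without the 3 high in Tcf7l2. Below 0 were 5 of the 10 calcium α1 genes (4 to 6 with each library left out), against 49.88% of all genes. Of the 10 sodium α genes, 7 were below 0, with a median of -0.36.

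Averaged over both stress conditions, 0 of the 42 genes passed for Setd7 by limma, as did 0.00563% of all genes, and 5 had an unadjusted p under 0.05, against 7.12% of all genes (3.7% higher and 3.42% lower). DESeq2 (0.0394% of all genes called) and edgeR (0.00563%) called 0 of the 42. The 5 were Cacna2d2 (0.22 ± 0.07), Cacna2d4 (-0.62 ± 0.20), Cacna1g (-0.33 ± 0.11), Cacna1c (-0.24 ± 0.10) and Cacnb4 (-0.21 ± 0.09), with adjusted p from 0.686 to 0.697 by limma, and Cacng8 came next (0.14 ± 0.06). Of the 10 calcium α1 genes, 9 had a difference below 0 (7 to 10 with each library left out), against 48.97% of all genes, with a median of -0.09, against 0.00 over all genes. For the sodium α genes it was 7 of 10, with a median of -0.04. Averaged over both viruses, 0 of the 42 genes passed for defeat by limma, as did 0.0% of all genes, and 0 had an unadjusted p under 0.05, against 5.18% of all genes (2.34% higher and 2.83% lower). DESeq2 (0.0451% of all genes called) and edgeR (0.0%) called 0 of the 42. Cacna1g (-0.22 ± 0.11), Cacna2d4 (-0.39 ± 0.20), Cacng8 (0.12 ± 0.06), Cacng5 (-0.30 ± 0.17), Hcn3 (0.20 ± 0.11) and Cacna1d (-0.09 ± 0.05) had the smallest p, and 9 of the 10 calcium α1 genes had a difference below 0 (7 to 10 with each library left out), against 49.72% of all genes. The Cacng5 difference was -0.48 without Setd7 defeat replicate 1 and -0.09 without replicate 2. Hcn3 turned to -0.04 without the 3 libraries high in Tcf7l2. For averaged defeat, 5 of the 10 sodium α genes were below 0.

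For sex, female minus male, 0 of the 42 genes passed by limma, as did 0.062% of all genes, and 1 had an unadjusted p under 0.05, against 3.87% of all genes (2.06% higher and 1.81% lower). DESeq2 (0.0957% of all genes called) and edgeR (0.0563%) called 0 of the 42. The gene was Hcn4, a pacemaker channel of the heart that brain also expresses, with a log2 difference of -0.21 ± 0.08 (adjusted p = 0.999 by limma). Of the 10 calcium α1 genes, 9 were lower in female libraries (8 to 10 with each library left out), as were 51.15% of all genes, with a median of -0.11, against -0.00 over all genes. Of the 10 sodium α genes, 5 were lower in female libraries. Cacna1a (-0.11 ± 0.06), Cacng5 (0.29 ± 0.16), Cacna1g (-0.19 ± 0.11), Cacna1b (-0.10 ± 0.06) and Cacna1e (-0.11 ± 0.08) had the next smallest p.

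Of 51 other genes that place, scaffold or regulate these channels or AMPA receptors, 47 were tested. By limma 0 passed between Setd7 control and GFP control, with 3 higher and 5 lower at unadjusted p under 0.05, against 8.01% of all genes, and a median log2 difference of -0.04. Between GFP defeat and GFP control 0 passed, with 2 in each direction at unadjusted p under 0.05, against 9.25% of all genes, and a median of -0.07. After defeat 0 passed for Setd7, with 2 at unadjusted p under 0.05, against 4.85% of all genes. With Setd7 0 passed for defeat, with 0 at unadjusted p under 0.05, against 2.59% of all genes, and DESeq2 and edgeR called 0 of the 47 in each of these 4 comparisons. Gsg1l, an AMPA receptor auxiliary subunit related to the γ subunits, had a log2 difference of 0.45 ± 0.14 for Setd7 without defeat, 0.40 ± 0.15 after defeat and 0.42 ± 0.10 on average (adjusted p = 0.539, 0.990 and 0.686 by limma). Shisa6, another AMPA receptor auxiliary subunit, had 0.59 ± 0.28 between Setd7 defeat and GFP defeat and -0.67 ± 0.25 between GFP defeat and GFP control. Fgf13, which binds sodium channel tails, had 0.57 ± 0.23 for Setd7 without defeat, Stac, an adaptor of L-type channels, 0.53 ± 0.19 and Rims2, a scaffold at presynaptic calcium channels, -0.25 ± 0.10. Fam155a, a subunit of the sodium leak channel, had -0.20 ± 0.08 between Setd7 defeat and GFP defeat and 0.18 ± 0.07 between GFP defeat and GFP control, with adjusted p = 0.990 and 0.497 by limma. By the same rule, Fgf14 (-0.19) was named for Setd7 after defeat, Stac (0.47) and Shisa7 (-0.22) for defeat with GFP, and Fam155a (-0.16), Shisa6 (0.46), Cachd1 (0.21) and Gria4 (0.17) for defeat with Setd7.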

How the data were processed

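Bulk RNA-seq libraries of VTA punches were made with a ribosomal RNA depletion kit, per the labels' protocols. Bowtie2, featureCounts, DESeq2 and the build GRCm39 are named in the submitters' processing notes, with no versions. The deposited table holds a normalized signal, counts divided by DESeq2 size factors by the authors. Of 341432 values, 100% were whole reads within 0.01 once divided by the value of 1 read in that library, so reads were recovered. Depth was 26.5 to 50.8 megareads per library, and its precision covers counting error only.

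Genes with 10 or more normalized counts in at least 2 libraries were tested (17755, with 8509 dropped). The main test was limma 3.58.1 (R 4.3.3) on log2(normalized count + 1) over all 13 libraries, with a term per group and sex, and Benjamini-Hochberg adjustment over all 17755 genes at 0.05. Fold changes are on that scale, which understates those of low genes. Alternatives were edgeR 4.0.16 (quasi-likelihood) and DESeq2 1.42.0 on the recovered reads, TMM scaling, pseudocounts of 0.5 and 5, other filters, no sex term, each library left out, and 2 exclusions of 3 libraries. The script was tested on simulated data. Exon lengths came from GENCODE on GRCm38, matched by symbol for all 42 genes, and promoter windows from RefSeq.

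Full statistics went to genes called by any tool, the 6 with the smallest p per comparison among those with a mean of 30 or more, and the 2 highest per kb of each role; of partner genes, 4 per comparison were named. Members and lists were chosen with earlier results of these data known. Some genes are not reported here.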

Additional observations from a re-analysis of the deposited data

Results flagged for a closer look

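In groups of 4 libraries, a library was singled out where its gap to the nearest other library was, as a share of the range of the group, above Dixon's 95% critical value. This gave 5 of 84 groups tested, where chance gives about 1 in 20. Cacng2 was at 3216 normalized counts in GFP defeat replicate 2, with the nearest library at 2622. Cacng7 was at 6302 in the same library, with the nearest at 5328. Cacng4 was at 3881 in GFP defeat replicate 4, with the nearest at 2854. Scn3b, a sodium channel β subunit, was at 8815 in GFP defeat replicate 4, with the nearest at 5498. Scn3b was also at 6977 in Setd7 control replicate 4, with the nearest at 5523. These 2 libraries had the highest sums of dopamine neuron genes of the 13, 164267 in GFP defeat replicate 4 and 173632 in Setd7 control replicate 4, whose part in the Scn3b values was not tested.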

How the results depend on the processing

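DESeq2 called 1 of the 42 genes in each comparison against GFP control, in both cases Cacng5, with log2 differences of -1.02 and -0.998, and limma and edgeR called 0. With each library left out in turn, 0 to 1 genes passed for Setd7 without defeat by limma, and 0 passed in each other comparison. The 1 was Scn9a (0.91, adjusted p = 0.0373) without GFP control replicate 1, where 4 of all 17755 genes passed. The GFP control libraries left in that fit, replicates 2 and 3, had the lowest Scn9a values of the 13 libraries. The median log2 difference of the 42 genes for Setd7 without defeat was -0.0798 without the 3 libraries low in Th and -0.065 without the 3 high in Tcf7l2, and that of the interaction was -0.00969 without the 3 high in Tcf7l2. With each library left out, these medians ran from -0.03 to 0.03 for Setd7 without defeat, -0.113 to -0.0204 for Setd7 after defeat, -0.0548 to 0.073 for defeat with GFP, -0.09 to -0.00 for defeat with Setd7, -0.107 to 0.0354 for the interaction, -0.07 to 0.00 for averaged Setd7 and -0.0816 to 0.0118 for averaged defeat. Single genes turned direction without the 3 libraries low in Th and the 3 high in Tcf7l2: Cacnb4 for Setd7 without defeat (0.0698 and 0.0619), and Scn9a (-0.35 and -0.38) and Hcn3 (-0.0295 and -0.17) for defeat with GFP. Scn9a turned in the interaction (0.34 and 0.37), and Hcn3 for averaged defeat without the 3 high in Tcf7l2 (-0.0358). Both exclusions leave 1 GFP control library, assumed to vary like the other groups, and the cause of these shifts was not tested. For the 6 genes of smallest p in each comparison, each alternative was tabulated gene by gene. Under those that leave out no single library, 463 values kept direction and side of the threshold, 2 came past it and 9 turned. The 624 values of these genes with a library left out kept both. Many of these left out a library of neither group compared, and the genes were chosen by their p in these data. The count therefore does not measure stability. Scn9a for Setd7 without defeat, whose call is given above, is not among these values. Under TMM scaling the median log2 difference of all genes was at most 0.0127 in size in any comparison. No paired analysis was possible because the labels give each library its own number, and replicate numbers only name libraries. With 2 to 4 libraries a group, smaller differences could not be told from the spread between libraries.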
